A study of Homo sapiens with 6 samples.

Results

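The genes described here are 9 genes of heme biosynthesis, ALAS1, ALAS2, ALAD, UROS, UROD, CPOX, PPOX, FECH and SLC25A38, chosen by name. All 9 were present in the deposited table, each under 1 identifier, among 31142 genes in all. RNA-seq was carried out on 6 libraries labelled as SKM-1, an acute myeloid leukemia cell line derived from a myelodysplastic syndrome (MDS). In 3 libraries the cells expressed the S34F mutant of the splicing factor U2AF1 (S34F), and in 3 they were labelled as wild-type U2AF1 (WT), all at 96 h. In the study's methods, FLAG-tagged U2AF1 was carried by a lentivirus behind a ubiquitin promoter, with GFP and puromycin resistance, and transduced cells were selected with puromycin. The parental line expresses wild-type U2AF1, so the mutant was added to it. The titles call the control libraries WT but begin with NC, the study's short form for negative controls. Its results describe the cells sequenced as expressing wild-type U2AF1, while its RNA-seq methods speak of a vehicle control, so whether the WT libraries carried a wild-type transgene is not clear. The comparison asks how gene expression differed between cells with mutant and wild-type U2AF1, and it is given here for the heme genes, which supply the red cell lineage that is impaired in many patients with MDS.

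Heme is made in a series of enzymatic steps that begin and end in the mitochondrion. SLC25A38 brings glycine into the mitochondrion, and 5-aminolevulinate synthase joins it to succinyl-CoA in the rate-limiting step. ALAS1 encodes the form of this synthase found in all tissues, which heme represses, and ALAS2 the form of erythroid cells, whose mRNA is translated when iron is available. ALAD, UROS and UROD act in the cytosol, where the porphyrin ring is built and trimmed. CPOX and PPOX oxidize it on the way back into the mitochondrion, and FECH, an iron-sulfur protein, inserts the iron. Inherited loss of ALAS2 or SLC25A38 causes sideroblastic anemia, and defects of most of the other enzymes cause porphyrias.

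The iron control of ALAS2 is carried by an iron-responsive element, a hairpin near the start of its mRNA, which is shown here because it sets ALAS2 apart from the other members. A hairpin with an unpaired C, a stem of 5 base pairs and the loop CAGTGN was searched on the mRNA strand of 5′ untranslated regions of GENCODE 29. It was found in 1 of the 9 members, ALAS2, and in 36 of 18701 genes searched, or 0.193%. The element covers bases 10 to 37 of transcript ENST00000396198, with the loop in capitals. Gene-level RNA values do not report on its use, which acts on translation.
ALAS2 element: tcgttcgtcctCAGTGCagggcaacagg

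The promoters of the synthase genes are shown because both genes encode the enzyme of the same step and their levels lie far apart. The 250 bases before each RefSeq start (GRCh38.p14) were searched on both strands for GATA words (AGATAA and its variant TGATAA, each also with G as the last letter), which erythroid GATA factors bind, and for CCACCC, which KLF1 and related factors bind. The ALAS2 window, at chrX:55030978-55031227 on the minus strand, held 1 GATA word and 2 overlapping copies of CCACCC, here in capitals and read on the opposite strand. The ALAS1 window, at chr3:52197833-52198082 on the plus strand, held 0 of either. Of 35116 promoters, 22.3% held a GATA word and 31.3% held CCACCC in this window, so such words are common. A promoter was found for 8 of the 9 members, all but UROS. The CPOX window held 2 GATA words, and ALAD and PPOX each held 1 in a window. PPOX and SLC25A38 each held 1 CCACCC. UROD, the member with the highest level after ALAS2, and FECH held 0 of either.
ALAS2 promoter: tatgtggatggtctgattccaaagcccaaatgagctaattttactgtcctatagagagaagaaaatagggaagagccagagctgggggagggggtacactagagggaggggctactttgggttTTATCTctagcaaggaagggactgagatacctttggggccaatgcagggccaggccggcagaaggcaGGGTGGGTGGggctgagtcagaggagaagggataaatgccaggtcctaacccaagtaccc
ALAS1 promoter: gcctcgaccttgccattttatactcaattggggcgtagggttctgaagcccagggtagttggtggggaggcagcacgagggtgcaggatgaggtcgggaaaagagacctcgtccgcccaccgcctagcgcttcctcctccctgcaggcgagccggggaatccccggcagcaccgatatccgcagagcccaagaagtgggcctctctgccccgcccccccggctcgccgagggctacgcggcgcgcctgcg

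Levels are given as FPKM, fragments scaled by the length of the transcript and by the mapped fragments of the library, so that genes of different length can be compared. The approximate depth was 20.5 to 26.1 M fragments. S34F replicate 3 stood apart from the other libraries and WT replicate 3 lay on the same side, with scores on the first principal component of 35.1 and 12.9 against -16.3 to -7.71 for the other 4. Results are therefore given with and without these libraries. U2AF1 itself measured 9.24, 9.48 and 9.18 FPKM in S34F and 8.67, 8.70 and 7.65 FPKM in WT, and gene-level values do not separate the alleles. Of 14 listed monocytic and granulocytic markers, 10 had a mean under 1 FPKM, and MPO, FCN1 and S100A8 were listed at 0 in 4, 5 and 5 of the 6 libraries. The highest of that list, CST3 and LYZ, had means of 38.2 and 15.7 FPKM and made up most of its summed level. Of 15 listed erythroid markers, 8 had a mean of at least 10 FPKM, led by the globins HBE1 and HBG2. The summed level of the monocytic and granulocytic list was 53.0 to 64.8 FPKM in S34F and 58.1 to 67.3 FPKM in WT, and of the erythroid list 11749 to 13579 and 11353 to 12541 FPKM. SKM-1 is known as a line of monoblastic character. Most listed monocytic and granulocytic genes were under 1 FPKM, though not CST3 and LYZ, while globins were abundant. Megakaryocytic and lymphoid genes were low, with 3 of the 4 megakaryocytic and 4 of the 5 lymphoid markers in the table at a mean under 1 FPKM. In bulk RNA, fewer cells of a type and less RNA per cell cannot be told apart.

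All 9 heme genes were expressed in all 6 libraries, over a range of levels that set the erythroid synthase far above the rest. ALAS2 (ENSG00000158578, chromosome X of GRCh38 from 55009055 to 55031064, minus strand) had a mean of 339 FPKM and ranked 125 of the 31142 genes. UROD, the decarboxylase of uroporphyrinogen (ENSG00000126088, chromosome 1 from 45012147 to 45015575), followed with 95.2 FPKM and rank 437. ALAS1 (ENSG00000023330, chromosome 3 from 52198086 to 52214327) had 32.3 FPKM and SLC25A38 (ENSG00000144659, chromosome 3 from 39383324 to 39397351) had 22.6 FPKM. The other 5 lay between 4.95 and 12.6 FPKM, with UROS, which closes the porphyrin ring (ENSG00000188690, chromosome 10 from 125784980 to 125823285), the lowest at rank 5684. Together the 9 genes made up 0.142% to 0.172% of the summed FPKM of a library, and ALAS2 alone was 59.6% to 68.7% of that. The ratio of ALAS2 to ALAS1 in FPKM was 12.4, 11.4 and 9.98 in S34F replicates 1, 2 and 3 and 8.35, 9.50 and 12.2 in WT replicates 1, 2 and 3. These ratios overlapped between the groups, with means of 11.3 ± 1.21 and 10.01 ± 1.96 (SD, n = 3; two-sided exact permutation p = 0.4).

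**Figure D1:**
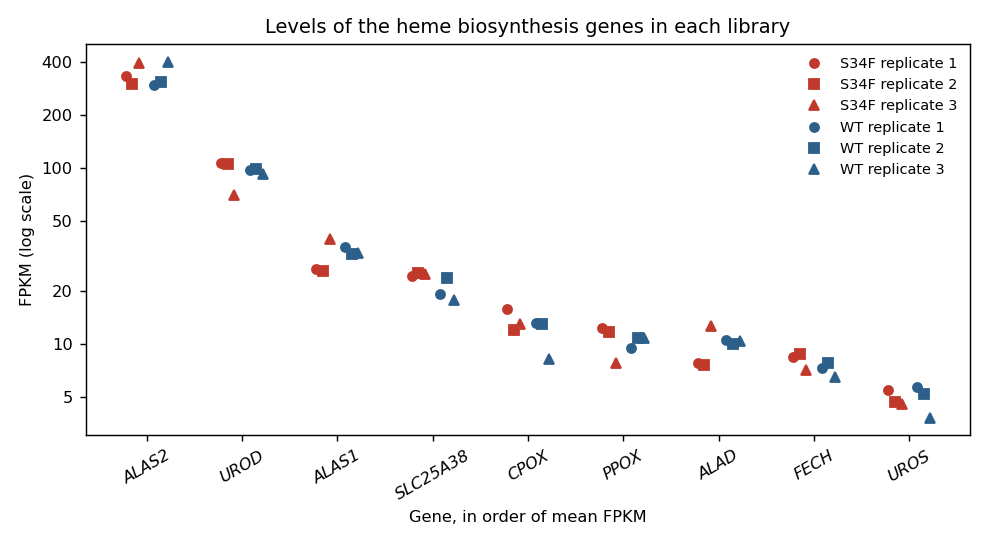
FPKM of each gene in each library on a log axis, with S34F in red, WT in blue and the replicate number as the marker shape. ALAS2 lies near 339 FPKM and UROD near 95.2 FPKM, above the other 7 genes in each of the 6 libraries.

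The order of the levels was ALAS2, UROD, ALAS1, SLC25A38, CPOX, PPOX, ALAD, FECH and UROS. Of the 8 neighbouring pairs in this order, 5 were ordered alike in all 6 libraries, among them ALAS1 over SLC25A38, by 1.43 times in mean FPKM, and FECH over UROS, by 1.56 times. For these pairs a two-sided exact sign-flip test over the libraries gave p = 0.03125, the smallest it can give, and 0.05 after Benjamini-Hochberg adjustment over the 8 pairs. Thus 0 of the 8 pairs had an adjusted p under 0.05. The order was set by the means of the same libraries, and a pair ordered alike in all 6 always gives this p. The test therefore adds nothing to the count of such pairs. CPOX, PPOX and ALAD, at 12.6, 10.6 and 9.88 FPKM, changed places between libraries, as did ALAD and FECH, and the means of PPOX and ALAD changed places without S34F replicate 1 or 2. CPOX was above PPOX in 5 of 6 libraries (exact p = 0.219), PPOX above ALAD in 4 of 6 (exact p = 0.688) and ALAD above FECH in 4 of 6 (exact p = 0.125). These 3 pairs did not differ beyond their spread between libraries.

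No heme gene was called different between S34F and WT. Of the 9 members, 0 had an adjusted p under 0.05 in limma with Benjamini-Hochberg adjustment, against 0% of the 10942 genes tested, those with a mean of at least 1 FPKM. The study itself used a fold change of more than 1.5 together with an unadjusted p under 0.05. Here these limits were applied to the folds and p-values of the limma fit, not to those of the study. By them 0 of 9 members and 0.585% of all genes tested were called. At an unadjusted p under 0.05 alone (limma), the members called were 0 of 9, against 2.39% of all genes. On the log2(FPKM + 1) scale, on which changes of low genes are understated, the members' log2 fold changes ran from -0.15 to 0.30. Their median was 0.011, against 0.015 for all genes tested. There were 6 members with a higher and 3 with a lower value in S34F, but only 5 and 4 were higher under median-ratio scaling and quantile normalization, while 54.6% of all genes were higher. The median within-group SD of the members was 0.24 on the log2 scale, against 0.18 for all genes tested. The S34F libraries all lay above the WT libraries for 1 member, SLC25A38, and for 3.66% of all genes, and all below for 0 members and 3.73% of genes. Adjusted p-values were 1.00 for all 9 members from limma, so they are not repeated below. The smallest two-sided p that an exact permutation test of 3 against 3 libraries can reach is 0.1. Whether the samples of a group came from separate cultures is not given in the labels, so the tests measure the spread between these samples.

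**Figure D2:**
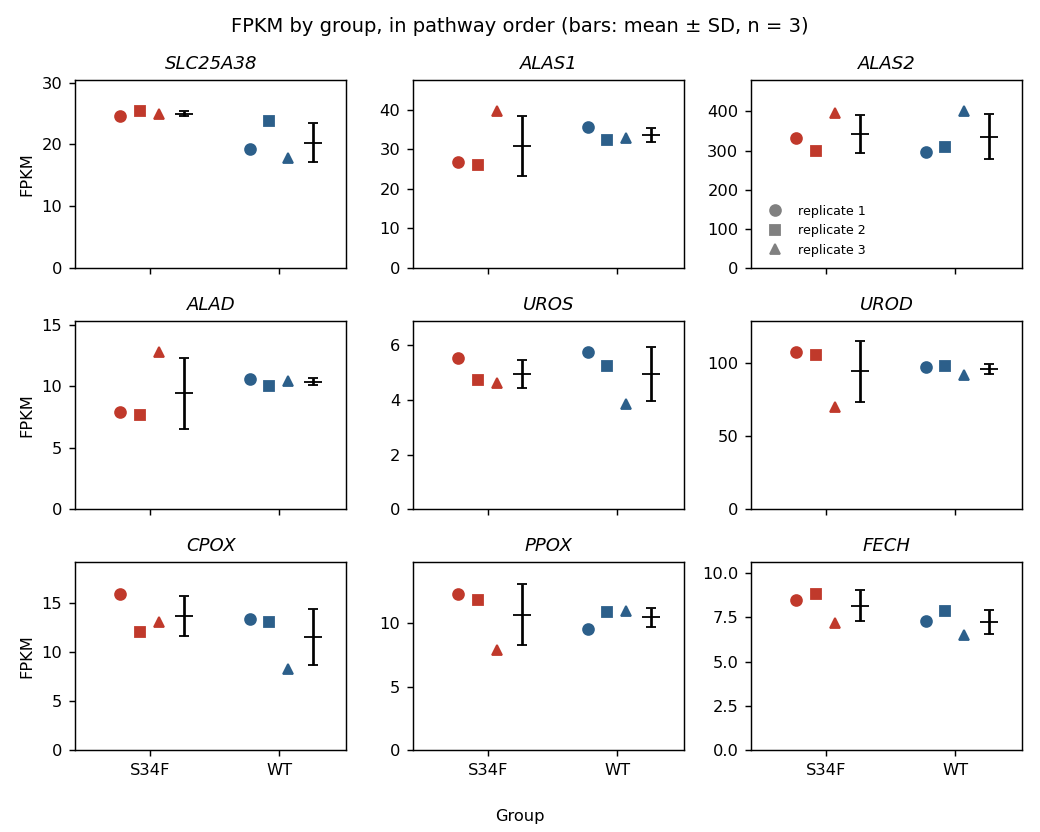
FPKM of each gene in S34F (red) and WT (blue) libraries, in pathway order, each panel with its own axis from 0, with the replicate number as the marker shape and mean ± SD (n = 3) beside the points. SLC25A38 is the gene whose groups do not overlap, and ALAS2 is high in replicate 3 of both groups, at 396 and 401 FPKM.

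The supply of glycine and the rate-limiting step come first. SLC25A38, the glycine carrier, had 24.6, 25.4 and 24.9 FPKM in S34F replicates 1, 2 and 3 and 19.2, 23.8 and 17.8 FPKM in WT replicates 1, 2 and 3. The S34F libraries were alike and above each WT library, with WT replicate 2 close below them. The means were 25.0 ± 0.395 and 20.3 ± 3.13 FPKM (SD, n = 3), a log2 fold change of 0.30 (standard error 0.13, 95% interval from -0.0044 to 0.60; unadjusted p = 0.0526 from limma; exact permutation p = 0.1). Blocking on the replicate number gave an unadjusted p of 0.0408 from limma (adjusted p = 0.994), and S34F was higher in 3 of 3 same-numbered pairs. In fits with no block, the p-value of SLC25A38 was 0.151 without WT replicate 1, 0.139 without WT replicate 3 and 0.0163 without WT replicate 2 (each unadjusted, limma).

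ALAS1, the synthase found in all tissues, had 26.9, 26.1 and 39.7 FPKM in S34F replicates 1, 2 and 3 and 35.6, 32.5 and 32.9 FPKM in WT. S34F replicates 1 and 2 were below each WT library and S34F replicate 3 was above them, so the groups overlapped. In limma the difference of ALAS1 was -0.14 in log2 fold change (standard error 0.17, 95% interval from -0.55 to 0.26; unadjusted p = 0.427 from limma). ALAS2, its erythroid counterpart, had 333, 298 and 396 FPKM in S34F and 297, 309 and 401 FPKM in WT. Replicate 3 was the highest in each group and nearly equal, and the other 4 libraries lay between 297 and 333 FPKM. The log2 fold change of ALAS2 was 0.03 (standard error 0.16, 95% interval from -0.34 to 0.41; unadjusted p = 0.847 from limma), so that a fold between 0.788 and 1.33 lay within its interval. ALAS2 overlaps exons of APEX2, a DNA repair gene on the opposite strand with a mean of 50.9 FPKM. Whether the authors counted by strand is not given in the sources used here.

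The cytosolic steps showed no shared direction. ALAD, which joins aminolevulinate molecules to porphobilinogen (ENSG00000148218, chromosome 9 from 113386317 to 113401333), had 7.89, 7.64 and 12.7 FPKM in S34F and 10.6, 10.02 and 10.4 FPKM in WT. As for ALAS1, S34F replicates 1 and 2 were below the WT libraries and S34F replicate 3 above them. For ALAD the fold change was -0.15 on the log2 scale (standard error 0.19, 95% interval from -0.60 to 0.29; unadjusted p = 0.44 from limma). UROS had 5.52, 4.71 and 4.61 FPKM in S34F and 5.74, 5.25 and 3.85 FPKM in WT. Its groups overlapped, with means of 4.95 FPKM in both, and the log2 fold change was 0.01 (standard error 0.15, 95% interval from -0.35 to 0.37). These levels of UROS correspond to about 95.2 to 148 fragments per kilobase, a counting error of 8.21% to 10.2% per kilobase. The coefficient of variation of UROS over the 6 libraries was 14.1%, against a median of 15.4% for all genes tested. The part of counting error in this spread was not tested. UROD had 107, 106 and 70.1 FPKM in S34F and 97.2, 98.4 and 92.2 FPKM in WT. Here S34F replicates 1 and 2 were the highest and S34F replicate 3 the lowest of the 6. The log2 fold change of UROD was -0.05 (standard error 0.18, 95% interval from -0.46 to 0.37; unadjusted p = 0.797 from limma).

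The mitochondrial end of the pathway was also within the spread between replicates. CPOX, the coproporphyrinogen oxidase (ENSG00000080819, chromosome 3 from 98579446 to 98593723), had 15.9, 12.03 and 13.1 FPKM in S34F and 13.3, 13.0 and 8.22 FPKM in WT. WT replicate 3 was low and the other 5 libraries overlapped. The difference of CPOX was 0.25 on the log2 scale (standard error 0.20, 95% interval from -0.23 to 0.73; unadjusted p = 0.257 from limma), 0.042 without WT replicate 3 and 0.14 without S34F replicate 1. PPOX, which makes protoporphyrin (ENSG00000143224, chromosome 1 from 161166410 to 161178013), had 12.3, 11.8 and 7.89 FPKM in S34F and 9.55, 10.8 and 10.9 FPKM in WT. S34F replicate 3 was again the lowest, with S34F replicates 1 and 2 the highest. PPOX had a log2 fold change of 0.01 (standard error 0.17, 95% interval from -0.41 to 0.42), with a sign that changed under median-ratio scaling and quantile normalization. PPOX shares exonic positions with B4GALT3 on the opposite strand, at a mean of 14.4 FPKM. CPOX shares exonic positions with AC021660.3, a protein-coding gene on the same strand, for which no values were found in the deposited data. FECH, the ferrochelatase (ENSG00000066926, chromosome 18 from 57548283 to 57586772), had 8.46, 8.83 and 7.18 FPKM in S34F and 7.31, 7.88 and 6.51 FPKM in WT. The groups overlapped, while S34F was higher in 3 of 3 same-numbered pairs. The log2 fold change of FECH was 0.15 (standard error 0.12, 95% interval from -0.14 to 0.44; unadjusted p = 0.253 from limma, and 0.148 with the replicate number as a block). It was 0.088 without WT replicate 3, 0.098 without S34F replicate 2 and 0.23 without S34F replicate 3.

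**Figure D3:**
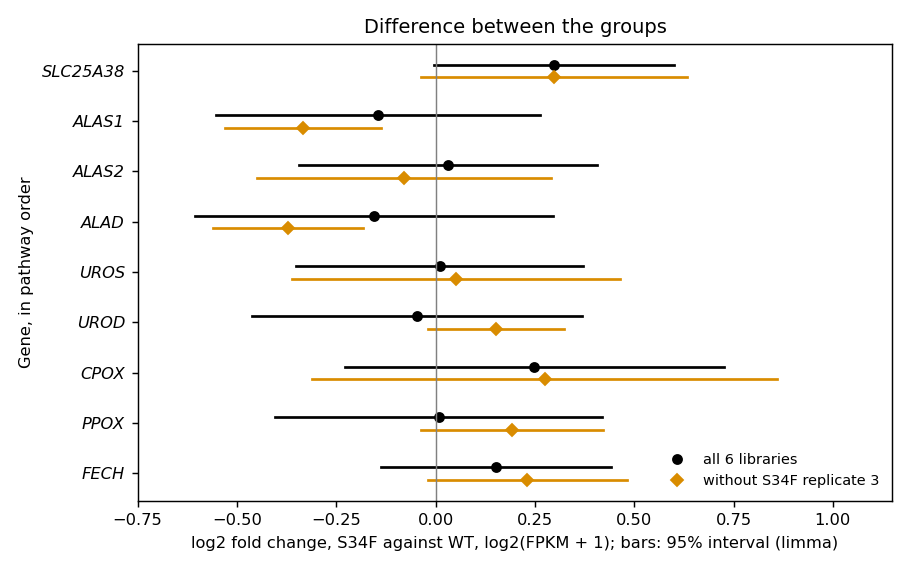
Log2 fold change of S34F against WT on the log2(FPKM + 1) scale with 95% intervals from limma, for all 6 libraries (black circles) and without S34F replicate 3 (orange diamonds). With all 6 libraries each interval includes 0, and without S34F replicate 3 the intervals of ALAS1 and ALAD lie below 0, at log2 fold changes of -0.33 and -0.37.

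Several members had their highest or lowest values in replicate 3. ALAS2 was higher in replicate 3 of both groups than in the other 4 libraries, by 1.26 times the mean of replicates 1 and 2 in S34F and 1.32 times in WT. UROS, UROD and FECH were lower in replicate 3 of both groups than in the other 4 libraries, with FECH at 0.831 times in S34F and 0.858 times in WT. The share of members with replicate 3 of both groups outside the other 4 was 4 of 9, against 43.0% of all genes tested. S34F replicate 3 alone was high for ALAS1 and ALAD, at 1.499 and 1.64 times the mean of the other S34F libraries, and low for UROD and PPOX, at 0.657 and 0.655 times. The same ratios in WT were 0.967 and 1.01 for ALAS1 and ALAD and 0.943 and 1.07 for UROD and PPOX.

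Leaving out S34F replicate 3 moved the values of the early enzymes ALAS1 and ALAD. Without it, the log2 fold change was -0.33 for ALAS1 (standard error 0.078, unadjusted p = 0.00642, adjusted p = 0.265 in limma) and -0.37 for ALAD (standard error 0.076, unadjusted p = 0.00344, adjusted p = 0.261 in limma). Leaving out S34F replicate 1 or 2 instead brought ALAS1 to -0.060 or -0.040 and ALAD to -0.057 or -0.037, so the size of both differences rests on single S34F libraries. Those with an unadjusted p under 0.05 without S34F replicate 3 were 2 of 9 members, against 10.6% of all genes in that fit. Without replicate 3 of both groups, ALAS1 and ALAD stayed at -0.35 and -0.37, while UROD and PPOX had log2 fold changes of 0.12 and 0.22 (unadjusted p = 0.0297 and 0.0471, adjusted p = 0.248 and 0.291 from limma). In this fit of 2 against 2 libraries, 4 of 9 members had an unadjusted p under 0.05, against 16.9% of all genes, and 0 had an adjusted p under 0.05. Between the libraries numbered 3 alone, S34F minus WT was 0.26 for ALAS1, 0.27 for ALAD, -0.39 for UROD and -0.43 for PPOX on the log2 scale, opposite in sign to the other pairs. ALAS1 and ALAD varied together, with a Pearson correlation of 0.99 over the 6 libraries, as did UROD and PPOX, at 0.92, while ALAS1 and PPOX had -0.93. These are descriptions over 6 points that share the contrast between S34F replicate 3 and the rest. The approximate depth of S34F replicate 3, 24.8 M fragments, lay within that of the other libraries.

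Around the pathway, 63 genes in 6 lists were examined, of which 59 were tested. Of these, 36 were higher and 23 lower in S34F, with 1 at an unadjusted p under 0.05 (limma), and 0 passed the limits of the study or an adjusted p under 0.05. Over all genes tested, 54.6% were higher, 2.39% had an unadjusted p under 0.05 and 0.585% passed the limits of the study, so these counts are near the background. The gene with the unadjusted p under 0.05 was TMEM14C, which moves protoporphyrinogen across the inner mitochondrial membrane. It had 158, 159 and 159 FPKM in S34F replicates 1, 2 and 3 and 226, 236 and 163 FPKM in WT. Each S34F library was below the WT libraries, but WT replicate 3 was within a few FPKM of them. The log2 fold change was -0.37 (standard error 0.15, 95% interval from -0.73 to -0.013; unadjusted p = 0.0441, adjusted p = 1.00 in limma; exact permutation p = 0.1). It was -0.54 without WT replicate 3 (unadjusted p = 0.00107, limma), while leaving out any other single library gave an unadjusted p over 0.05, up to 0.151. The unadjusted p from limma was also over 0.05 with no filter, at 0.0529, under TPM scaling, at 0.0702, and under quantile normalization, at 0.0572. It stayed under 0.05 with median-ratio scaling, at 0.0286, and with the replicate block, at 0.0353. Without replicate 3 of both groups the log2 fold change was -0.54 (unadjusted p = 0.000218, adjusted p = 0.107 in limma). In the list of mitochondrial carriers and porphyrin transport, which holds TMEM14C and SLC25A39, a carrier needed for mitochondrial glutathione, at a mean of 50.6 FPKM, 6 of 10 genes were higher and 4 lower, with a median log2 fold change of 0.071.

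The iron-sulfur cluster assembly list, on which FECH depends for its cofactor, had 7 of 14 genes higher and 7 lower and a median log2 fold change of -0.015. Its most abundant genes were FDXR, the reductase that feeds electrons to mitochondrial ferredoxins, at 75.9 FPKM, and GLRX5, a glutaredoxin that hands on the clusters, at 42.9 FPKM. In the list of synthase turnover, heme sensing and iron regulation, 9 of 9 genes had a higher mean log2 value in S34F, against 54.6% of all genes tested, but 0 of them reached an unadjusted p under 0.05 in limma. Their median log2 fold change was 0.15 and their highest 0.31, of BACH1, a repressor that heme inactivates, which had 4.32 FPKM in S34F replicate 3 and 1.80 to 2.07 FPKM in the other 5 libraries. The median of the list was 0.061 without WT replicate 3, 0.084 without replicate 3 of both groups and 0.098 to 0.18 without any other single library. Its most abundant genes were LONP1, a mitochondrial protease that degrades ALAS1, at 52.2 FPKM, and EIF2AK1, the heme-regulated kinase that slows translation when heme is short, at 45.0 FPKM. The succinyl-CoA and glycine supply list had 6 of 9 tested genes higher, with a median of 0.047. It was led by SHMT2, which interconverts serine and glycine in mitochondria, at 40.3 FPKM, and SUCLG1, a succinyl-CoA synthetase subunit, at 27.9 FPKM.

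Genes that use, export or break down heme were led by BLVRB, a biliverdin reductase, at 178 FPKM, and HCCS, which attaches heme to cytochrome c, at 14.6 FPKM. Among 9 tested genes of this list 6 were higher and the median log2 fold change was 0.069. Its other 3 genes, HMOX1 and the membrane transporters FLVCR2 and ABCG2, had a mean under 1 FPKM. HMOX1, the inducible heme oxygenase, had 0.0212, 0.0555 and 0 FPKM in S34F replicates 1, 2 and 3 and 0.0326, 0.0167 and 0.0352 FPKM in WT. Each value was under that of 3 fragments, 0.0631 to 0.0804 FPKM, so HMOX1 was not detectable at this depth. HMOX2, the constitutive form, had a mean of 13.2 FPKM. Among the erythroid transcription factors, 2 of 8 genes were higher and 6 lower in S34F, with a median of -0.044 that ran from -0.13 to 0.078 when 1 library was left out. GATA1 had 183 ± 35.7 and 186 ± 9.50 FPKM (SD, n = 3) and KLF1 145 ± 19.6 and 139 ± 0.489 FPKM in S34F and WT. GATA1 and KLF1, like UROD, were lowest in S34F replicate 3, at 142 and 122 FPKM.

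The cell type markers were compared in the same fit. All 4 tested genes of the monocytic and granulocytic list had a lower mean log2 value in S34F, 2 of them at an unadjusted p under 0.05 (limma). LYZ, 1 of the 4, was nevertheless above each WT library in S34F replicate 3, at 23.2 FPKM. The other 10 genes of the list had a mean under 1 FPKM and were not tested. Of these, CD14, MPO, ELANE, PRTN3, S100A8, S100A9 and CEBPA had a higher mean FPKM in S34F, and AZU1, FCN1 and CSF1R a lower one. CEBPA had 0.851 ± 0.0944 FPKM in S34F and 0.577 ± 0.131 FPKM in WT (SD, n = 3). Of 13 tested erythroid markers, 11 were higher, with a median log2 fold change of 0.081 and 0 at an unadjusted p under 0.05 in limma. Over all genes tested, 54.6% were higher in S34F and 2.39% had an unadjusted p under 0.05. ITGAM, an integrin of monocytes and granulocytes, was at 1.81 ± 0.400 FPKM in S34F and 3.03 ± 0.587 FPKM in WT (SD, n = 3; unadjusted p = 0.0148, adjusted p = 1.00 in limma). CD33, a myeloid surface receptor, had 2.05 ± 0.406 and 2.83 ± 0.374 FPKM (unadjusted p = 0.0469, adjusted p = 1.00 in limma). Neither overlapped between the groups, with the S34F libraries all below the WT libraries, as for 3.73% of all genes tested. The lymphoid list summed to 9.11 to 15.5 FPKM in S34F and 17.5 to 17.8 FPKM in WT, nearly all of it CD3D, a T cell receptor chain, and the megakaryocytic list to 1.69 to 2.70 and 2.09 to 2.50 FPKM. The labels name only the SKM-1 line, and whether this RNA came from the line itself or from other cells was not tested. Any bearing on the values of the heme genes was not tested either.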

How the data were processed

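RNA-seq values of 6 libraries, 3 S34F and 3 WT by their titles, were analysed. The authors deposited FPKM per gene, with no counts, although the name of the table speaks of counts. The submitters' processing notes name StringTie and edgeR without roles. The aligner, genome build and annotation are not given in the sources used here. The table also holds the authors' fold changes, p-values and q-values, which were not used. A limma fit on log2(FPKM + 1) with a mean-variance trend was run over all genes whose mean FPKM reached 1, with Benjamini-Hochberg adjustment over these genes, and tested on simulated data. The members and lists were chosen with earlier results of these data known. Genes named are the members, and of each pathway list those with an unadjusted p under 0.05 and the 2 of highest mean FPKM. The genes most correlated with ALAS2 and leading or absent markers are also named, and others were named after their values were seen.

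Gene positions are those of GENCODE 29 (GRCh38), in which 31002 of the 31142 identifiers were found. Depth was approximated from the FPKM of 1 fragment in single-exon genes, and limits of 3 fragments cover counting error only. The deviations of same-numbered libraries from their group means correlated at 0.212, 0.174 and 0.380 over genes, and the study describes its RNA samples as pairs. The main fit was unpaired. Same-numbered libraries were treated as pairs only in the replicate block and where same-numbered pairs are named. Replicates 1 and 2 were not told apart by these values, since S34F replicate 2 correlated with WT replicate 1 at 0.197 and S34F replicate 1 with WT replicate 2 at 0.134. Alternatives were a pseudocount of 0.1, no filter, median-ratio, TPM and quantile scaling, no trend, a replicate block and libraries left out. Fits were made in limma 3.58.1 (R 4.3.3). Other steps used scipy 1.17.1, pandas 2.3.3, numpy 2.4.6 and matplotlib 3.10.9 under Python 3.11.15.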

Additional observations from a re-analysis of the deposited data

How the results depend on the processing

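The count of heme genes at an adjusted p under 0.05, and that past the limits of the study, stayed at 0 in all 14 alternatives. The count at an unadjusted p under 0.05 from limma, 0 with all libraries, was 1 (SLC25A38) with no filter, with median-ratio scaling, with TPM scaling and with the replicate block, 0 to 2 when 1 library was left out, and 4 without replicate 3 of both groups. The log2 fold changes of ALAS2, UROS, UROD and PPOX, between -0.047 and 0.032 with all libraries, changed sign under some alternatives. Leaving out 1 library gave -0.079 to 0.17 for ALAS2, -0.13 to 0.11 for UROS, -0.15 to 0.15 for UROD and -0.099 to 0.19 for PPOX. UROS was -0.0013 under quantile normalization and -0.089 without replicate 3 of both groups, UROD was 0.12 without replicate 3 of both groups, and PPOX was -0.0027 under median-ratio scaling and -0.015 under quantile normalization. ALAS1, ALAD, CPOX, FECH and SLC25A38 kept their sign in all 14 alternatives. The replicate block changed no other member's side of an unadjusted p of 0.05. Over all genes, the 262 with an unadjusted p under 0.05 became 904 with no filter, 443 with the block, 1160 without S34F replicate 3, 164 without WT replicate 1 and 1844 without replicate 3 of both groups, and the 64 past the limits of the study became 122 with a pseudocount of 0.1, 180 without S34F replicate 3 and 183 without replicate 3 of both groups. When 1 library was left out, the list medians of carriers, iron-sulfur assembly, succinyl-CoA and glycine supply and erythroid factors changed sign. The causes were not tested.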

Other observations

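The genes whose log2(FPKM + 1) over the 6 libraries was most like that of ALAS2 were HSPA1L, SRPRA, MUL1, CCDC9 and DNHD1, with Pearson correlations between 0.989 and 0.997. They were picked as the highest of all genes tested, over 6 points that share the contrast between replicate 3 and the rest, so the correlations are a description. SRPRA, a subunit of the receptor for the signal recognition particle, had 58.4 and 57.3 FPKM in replicate 3 of S34F and WT against 46.6 to 50.5 FPKM in the other 4 libraries. HSPA1L, a heat shock protein of the HSP70 family, had 1.68 and 1.73 FPKM against 0.757 to 1.05 FPKM. MUL1, a mitochondrial ubiquitin ligase, had 28.7 and 28.4 FPKM against 23.4 to 25.1 FPKM. As for ALAS2, the groups overlapped in each of these genes and replicate 3 of both groups was the highest.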
